A study of Mus musculus with 6 samples.

Results

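The genes described here are 45 genes of the lysosome, taken by symbol from a list of vacuolar ATPase (V-ATPase) subunits, lysosomal membrane proteins and lysosomal enzymes. All 45 were found among the 25751 genes of the count table. They comprise 17 V-ATPase genes, 5 membrane proteins, 3 lumenal carriers or precursors, 11 glycosidases, 5 sulfatases, 3 lipid hydrolases and 1 peptidase. RNA-seq of poly(A) RNA, read from both ends, was made from primary wild-type (WT) mouse myeloid cells labelled 24 h. The treated group (3 libraries) received TMAO, trimethylamine N-oxide, a metabolite made in the liver from a product of gut bacteria, and the control group (3 libraries) did not. The sample descriptions name the treated libraries T-BMDM and the others Control; dose, strain, age and sex are not given in the labels. Both groups are labelled primary myeloid cells, but only the treated ones are named BMDM, and whether the controls are the same kind of culture is not stated. A difference in culture and the treatment therefore cannot be told apart in any comparison below. The labels do not say whether replicates are separate cultures or animals, so the spread behind each p-value may be technical.

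Lysosomes digest material that a cell has engulfed or retired, and macrophages hold many of them. The V-ATPase acidifies their lumen: its cytosolic sector, V1, hydrolyses ATP and turns a rotor that drives protons through the membrane sector, V0. The hydrolases work at this acid pH and take sugars, sulfate groups, lipids and peptides apart in fixed order, so that loss of 1 enzyme leaves its substrate stored. Many lysosomal genes carry in their promoters a motif bound by TFEB, TFE3 and MITF, factors of the MiT/TFE family, and known as the CLEAR element.

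Promoters that hold the core of this motif, TCACGTG, are shown because members that carry it moved in both directions. The sequences are RefSeq's, from mouse build GRCm38.p6, and a promoter there runs from 250 bases before to 50 bases after a gene's start. They were found for 36 of the 45 members, with 39 promoters in all. TCACGTG, searched on both strands, was in 12 of these 39 promoters (30.8%) and in 3.77% of all 32851 promoters. It contains the E-box CACGTG, which was in the same number of member promoters, 12, and in 7.15% of all promoters. Each line gives the last 80 bases before the start on the gene's own strand, with TCACGTG or its reverse complement CACGTGA in capitals. The windows lie at chr8:13159081-13159160 (Lamp1, plus strand), chr8:3500439-3500518 (Mcoln1, plus strand), chr4:117887330-117887409 (Atp6v0b, minus strand), chr9:114400998-114401077 (Glb1, plus strand), chr11:101070014-101070093 (Naglu, plus strand), chr15:89477425-89477504 (Arsa, minus strand) and chr11:119355511-119355590 (Sgsh, minus strand).
Lamp1: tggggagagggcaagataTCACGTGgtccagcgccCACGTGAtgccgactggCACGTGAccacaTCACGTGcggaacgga
Mcoln1: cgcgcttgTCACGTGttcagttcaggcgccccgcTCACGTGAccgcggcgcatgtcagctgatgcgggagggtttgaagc
Atp6v0b: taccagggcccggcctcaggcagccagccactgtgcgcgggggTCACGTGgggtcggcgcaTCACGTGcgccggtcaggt
Glb1: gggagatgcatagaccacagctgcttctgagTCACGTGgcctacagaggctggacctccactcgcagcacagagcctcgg
Naglu: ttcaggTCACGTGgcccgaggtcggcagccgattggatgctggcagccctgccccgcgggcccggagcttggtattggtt
Arsa: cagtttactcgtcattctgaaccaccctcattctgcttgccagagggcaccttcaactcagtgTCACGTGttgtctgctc
Sgsh: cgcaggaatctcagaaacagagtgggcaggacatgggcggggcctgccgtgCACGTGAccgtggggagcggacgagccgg

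Of the 12 members with TCACGTG, 3 were higher with TMAO (Atp6v0b, Atp6v0d1 and Glb1), 5 were lower (Lamp1, Naglu, Sgsh, Arsa and Atp6v1a) and 4 did not pass the test (Mcoln1, Gaa, Gla and Atp6v0e). Their median log2 fold change was -0.12, against -0.38 in the 24 members whose promoters lack it. Of these 24, 4 were higher and 16 lower. Over all genes tested, 33% were higher and 32.7% lower. Lamp1, with 4 matches in the printed window, and Sgsh, with 1, both fell, whereas Atp6v0b, with 2, rose. A match of letters is a description of these windows and does not show a bound site.

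Transcripts of most lysosomal enzymes and membrane proteins were lower in the TMAO libraries. Of the 45 members, all of which passed the filter on low counts, 27 fell, 8 rose and 10 did not pass. A gene was called when the Benjamini-Hochberg adjusted p, over all genes tested by the quasi-likelihood method of edgeR, was below 0.05. Of the 14626 genes tested, 32.7% fell and 33% rose, 65.7% in all. Outside the V-ATPase, 21 of 28 members fell and 2 rose, and among the 17 V-ATPase genes 6 fell and 6 rose (35.3% each), shares near those over all genes. The median log2 fold change was -0.38 over all members, -0.53 outside the V-ATPase and 0.24 within it, against 0.01 over all genes tested. The 45 genes held 3.12% to 3.29% of all counts in the control libraries and 2.31% to 2.52% in the TMAO libraries. Single members held 380 to 594697 counts in a library. Of the 45 members, 30 were lower and 8 higher with TMAO without overlap between the CPM of the groups. Among all genes tested, such genes made up 35.4% and 35.6% (71% in either direction). In bulk libraries, fewer cells of a type and less RNA per cell cannot be told apart.

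**Figure D1:**
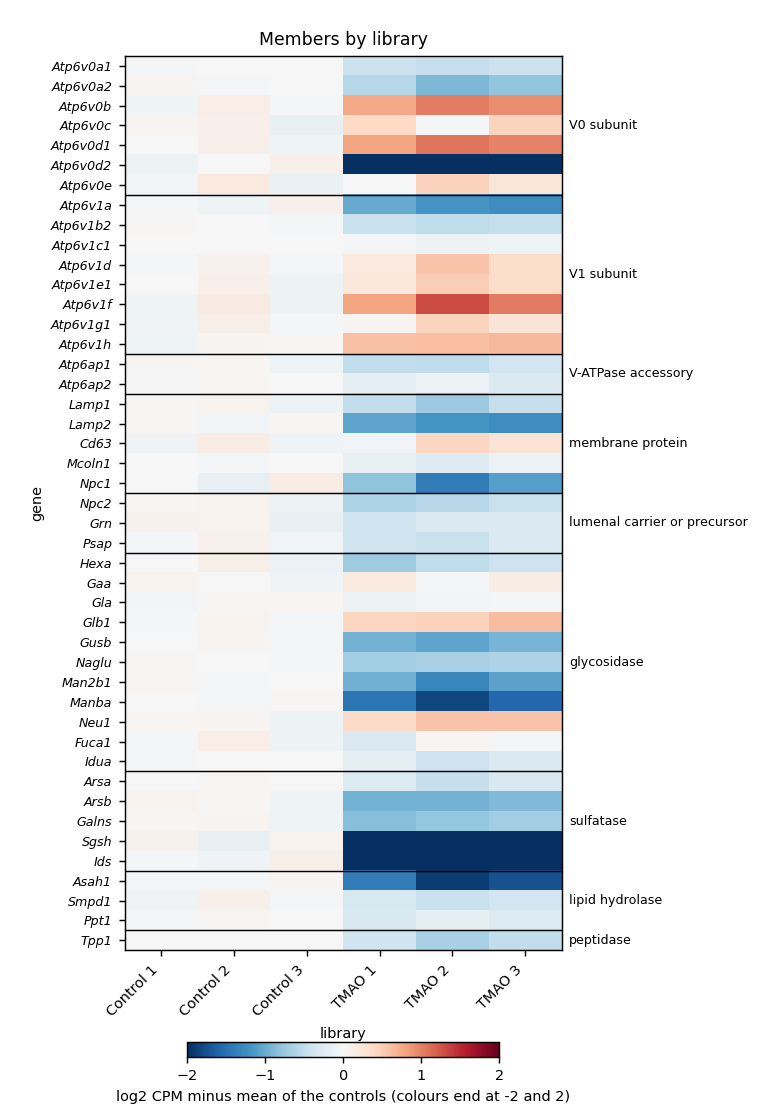
Level of each of the 45 members (rows, by class) in each of the 6 libraries (columns), as log2 CPM minus the mean log2 CPM of the 3 controls, with colours ending at -2 and 2. The control columns are nearly white, and Atp6v0d2, Sgsh and Ids are darkest blue in every TMAO library.

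The libraries held 37759007 to 41735109 counts, and libraries of 1 group correlated across genes more closely (r on log2 CPM 0.983 to 0.990, genes not being independent replicates) than libraries of different groups (0.897 to 0.930). All 10 myeloid identity markers were detected in both groups, but 6 fell and 2 rose. Mertk fell 9.94-fold, Fcgr1 4.19-fold, Adgre1 3.24-fold, Ptprc 2.13-fold, Cd68 1.75-fold and Csf1r 1.21-fold, and Spi1 and Fcgr3 rose 1.86-fold and 1.32-fold. Their summed level, 43909 to 48425 CPM in controls and 38966 to 47295 CPM with TMAO, is mostly Lyz2 (37023 ± 2335 and 37357 ± 4499 CPM), which did not pass the test (edgeR adjusted p = 0.923). Markers of other cells also moved with the treatment. The summed level of 15 neutrophil and precursor markers was 433 to 463 CPM in controls and 4122 to 5313 CPM with TMAO (13 higher, 1 lower). None was at 0 in all controls, but the control sum is mostly Mmp8 and Csf3r. Mmp8 was at 232 ± 4.55 and 249.7 ± 25.6 CPM and was not called, and Csf3r fell from 167 ± 7.09 to 102 ± 10.7 CPM. Mpo went from 0.0413 ± 0.0149 to 158 ± 14.9 CPM and Elane from 0.101 ± 0.103 to 234 ± 35.2 CPM. The summed level of 8 monocyte markers was 184 to 233 and 1046 to 1103 CPM (8 higher). For 7 B cell markers it was 9.06 to 11.4 and 32.8 to 35.3 CPM (6 higher, Pax5 at 0 in all controls). For 6 T and NK cell markers it was 0.206 to 0.557 and 1.92 to 2.45 CPM (1 higher, Cd3d and Nkg7 at 0 in all controls and Cd3e and Gzma at 0 with TMAO), and for 6 stromal and endothelial markers 10.2 to 12.3 and 25.7 to 34.2 CPM (3 higher). The part of these cell types, and of the fall of macrophage markers, in the changes of the lysosomal genes was not tested.

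Within V0, the proton-carrying sector, the transcripts of the d subunit's isoforms moved in opposite directions. Atp6v0d2 (ENSMUSG00000028238), the d isoform found in osteoclasts and macrophages, was at 175, 189.6 and 201 CPM (counts relative to the TMM-scaled library size) in the controls and at 27.0, 27.3 and 25.7 CPM with TMAO. The treated libraries lay close together and far below every control, a 7.07-fold fall (log2 fold change -2.82 with SE 0.09, adjusted p = 7.84e-09 by edgeR). Atp6v0d1 (ENSMUSG00000013160), the d isoform made in most tissues, was at 176, 189.6 and 168 CPM in controls and at 306, 372 and 353 CPM with TMAO. It rose 1.94-fold (log2 fold change 0.95 with SE 0.10, adjusted p = 1.34e-05 by edgeR), again without overlap. Per kilobase of transcript, d2 made up 39.0%, 39.1% and 43.5% of the d transcripts in controls and 5.36%, 4.49% and 4.47% with TMAO. The exact permutation test of this share, two-sided, gave p = 0.10, the smallest that 3 libraries against 3 allow (also 0.10 after adjustment over 6 such values). The summed level of 8 osteoclast markers was 168 to 172 CPM in both groups, with Calcr at 0 in all controls, 5 of the others higher and 2 lower. These sums hold opposite changes. Nfatc1 fell from 70.0 ± 3.57 to 32.3 ± 2.93 CPM, and Ctsk rose from 26.1 ± 0.172 to 53.6 ± 5.32 CPM.

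The a subunit, which sets the membrane the pump works in, also comes in isoforms that differed in direction. Atp6v0a1 was at 220.0, 225 and 225 CPM in controls and 165, 163 and 165 CPM with TMAO (log2 fold change -0.44 with SE 0.07, adjusted p = 0.000427 by edgeR). Atp6v0a2, an isoform of the Golgi and endosomes, went from 56.3 ± 1.75 to 33.6 ± 3.86 CPM (mean ± SD, n = 3 per group), 1.68-fold lower (edgeR adjusted p = 0.000104). Both fell, while Tcirg1, which is not among the 45 and encodes a3, the isoform of macrophage lysosomes and the osteoclast border, rose 1.51-fold, from 616 ± 44.6 to 931 ± 46.0 CPM (edgeR adjusted p = 0.000184). Per kilobase, a3 was already the main a transcript in controls, at 75.9% ± 1.43 (SD, n = 3) of the total of a1, a2 and a3, and it reached 87.0% ± 0.343 with TMAO (exact permutation p = 0.10).

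Of the V0 subunits that form the rotor ring, Atp6v0b was at 215, 249 and 222 CPM in controls and at 386, 462 and 434 CPM with TMAO. This 1.87-fold rise (log2 fold change 0.90 with SE 0.10, adjusted p = 2.05e-05 by edgeR) left no overlap. Atp6v0c, the ring's most numerous proteolipid, was at 795, 822 and 695 CPM and 1012, 757 and 1048 CPM. Its groups overlapped through TMAO replicate 2 and it did not pass the test (edgeR adjusted p = 0.0709); it did without that library (log2 fold change 0.42, adjusted p = 0.003, range over the alternatives 0.003 to 0.264). Its reads may be split with a copy, Atp6v0c-ps2, which held 4.87 to 11.1 CPM. Atp6v0e, a small membrane subunit, was at 228 ± 28.4 and 269.8 ± 42.2 CPM and did not pass either.

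In V1, the genes of both subunits of the ATP-hydrolysing head, Atp6v1a and Atp6v1b2, fell, and 4 of the other 6 V1 genes, Atp6v1d, Atp6v1e1, Atp6v1f and Atp6v1h, rose. Atp6v1a, the catalytic A subunit, was at 770.2, 735 and 835 CPM in controls and 386, 345 and 330.1 CPM with TMAO, a 2.21-fold fall (log2 fold change -1.14 with SE 0.09, adjusted p = 2.95e-06 by edgeR). Atp6v1b2, the B subunit that alternates with A in the head, fell 1.39-fold, from 651 ± 10.7 to 467 ± 10.3 CPM (edgeR adjusted p = 0.0003). Neither group overlapped the other in these subunits. Atp6v1f, part of the central rotor, was at 125, 152 and 125 CPM in controls and 231, 329 and 275 CPM with TMAO, and rose 2.08-fold (log2 fold change 1.06 with SE 0.13, adjusted p = 5.9e-05 by edgeR). Its partner Atp6v1d rose from 154 ± 7.38 to 201 ± 25.5 CPM and Atp6v1e1, of the peripheral stalk, from 282 ± 20.6 to 362 ± 35.5 CPM (edgeR adjusted p = 0.00744 and 0.00802). Atp6v1h, a regulatory subunit that governs coupling of V1 to V0, rose 1.53-fold, from 103 ± 5.18 to 157 ± 3.32 CPM (edgeR adjusted p = 7.74e-05).

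Atp6v1c1, the C subunit that joins V1 to V0, was at 339 ± 3.16 and 323 ± 9.43 CPM, and Atp6v1g1, of the peripheral stalk, at 196 ± 13.6 and 234 ± 31.8 CPM; the edgeR adjusted p was 0.422 and 0.0602, so neither was called. Among the accessory proteins that help the pump to assemble, Atp6ap1 fell from 588 ± 31.5 to 427 ± 19.8 CPM (log2 fold change -0.46, edgeR adjusted p = 0.000692). Atp6ap2, at 239 ± 6.12 and 209 ± 12.1 CPM, missed the threshold (edgeR adjusted p = 0.0554).

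**Figure D2:**
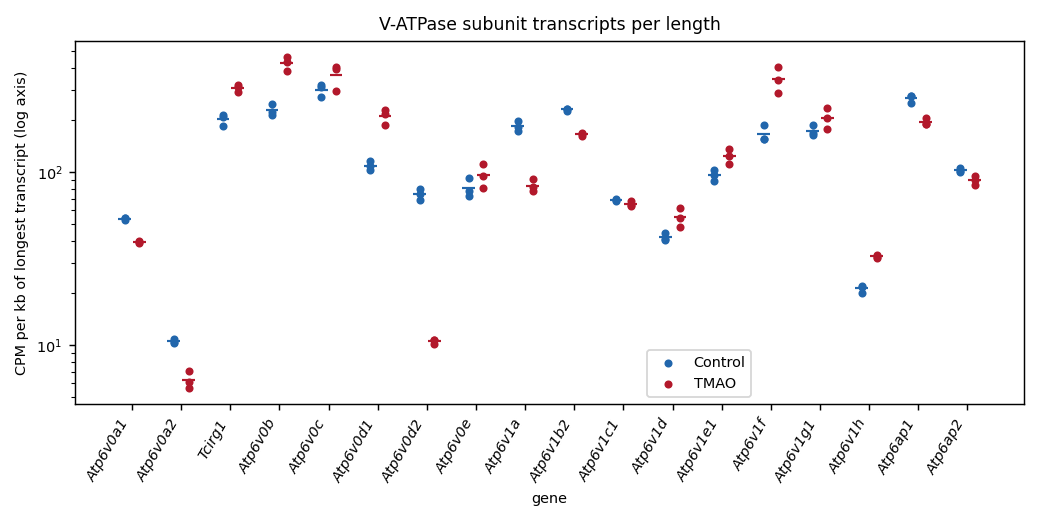
Transcript level of the 17 V-ATPase members and Tcirg1 in CPM per kilobase of the longest annotated transcript (log axis), 1 point per library, with a bar at the mean of 3. Atp6v0d2 falls from 74.3 to 10.5 CPM per kb, Atp6v1a from 184 to 83.5, and Atp6v0b and Atp6v1f rise to 427 and 345.

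Transcript length moved with the treatment across the whole table. In 5 bins of genes by length, the shortest had a median of 0.49 on the log2 scale and the longest of -0.53. Atp6v1f, at 806 bases, and Atp6v0b are in the bin of shortest genes and Atp6v0a2, at 5345 bases, in that of the longest; the part of length in their values was tested by removing the trend. With the length trend removed, log2 fold changes were 0.59 for Atp6v1f, 0.47 for Atp6v0b, 0.63 for Atp6v0d1, -0.37 for Atp6v0a2 and -0.25 for Atp6v0a1, all smaller than above and all still called. Atp6v1h, a long transcript that rose, was at 0.92 there, and Atp6v0d2 at -2.92. Atp6v1c1 turned and was called higher (log2 fold change 0.25, edgeR adjusted p = 0.00539, range over the alternatives 0.00539 to 0.649). Atp6v1g1 turned and was called lower (log2 fold change -0.17, edgeR adjusted p = 0.0386), but not with the replicate block added to that trend (edgeR adjusted p = 0.0596). It was called higher in 5 other alternatives, up to a log2 fold change of 0.35 without TMAO replicate 1 (edgeR adjusted p = 0.00801), in a range of p from 0.00801 to 0.207, so its direction depends on the setting.

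Summed per kilobase, transcripts of the V-ATPase members were at 2181, 2318 and 2134 CPM per kb in controls. With TMAO they were at 2371, 2615 and 2568 CPM per kb, 1.14 times the control level. Tcirg1, which is not a member, is left out of this sum and of V0 below. It was at 202 ± 14.7 CPM per kb in controls and 306 ± 15.1 with TMAO. With it counted, V1 would be a smaller share in both groups. V1 made up 53.3%, 52.6% and 54.3% of the transcripts of V0 and V1 members in controls and 47.0%, 50.6% and 46.9% with TMAO. Both groups of values stayed apart in these libraries (exact permutation p = 0.10 for each). With the length of the median transcript in place of the longest, the summed level overlapped between groups (exact permutation p = 0.30), and with the union of exons the V1 share did (p = 0.20).

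Among membrane proteins of the lysosome, 3 of 5 fell and none rose, against 32.7% and 33% of all genes tested. Lamp2, a major glycoprotein of the membrane with a role in chaperone-mediated autophagy, was at 829, 778 and 832 CPM in controls and at 390.2, 355 and 342 CPM with TMAO, a 2.24-fold fall (log2 fold change -1.17 with SE 0.09, adjusted p = 1.55e-06 by edgeR). Lamp1, its abundant relative, fell 1.47-fold, from 2214 ± 141 to 1504 ± 151 CPM (edgeR adjusted p = 0.000625). Npc1, which exports cholesterol from the lysosome, was at 312, 278 and 347 CPM in controls and 179, 119 and 146 CPM with TMAO, 2.12-fold lower (log2 fold change -1.08 with SE 0.14, adjusted p = 8.17e-05 by edgeR). All of these groups stayed apart. Of the exon bases of Npc1, 4.52% overlap Rmc1 on the other strand, at 43.1 CPM in controls and 73.0 CPM with TMAO. The part of these reads in the Npc1 values was not tested. The calcium channel gene Mcoln1 was at 92.8 ± 1.06 and 82.2 ± 3.71 CPM and missed the threshold (edgeR adjusted p = 0.0785), although its groups did not overlap. Cd63, a tetraspanin of late endosomes, was at 759 ± 69.2 and 886 ± 142 CPM and did not pass (edgeR adjusted p = 0.136). Part of its reads may lie in the copy Cd63-ps, at 53.7 to 92.5 CPM.

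The lumenal carriers and precursors, among them the most abundant member, Psap, all fell, by 1.26-fold to 1.47-fold. Psap, the precursor of the saposins that present lipids to hydrolases, was at 13240.2, 14371 and 12974 CPM in controls and at 10211, 9968 and 11026 CPM with TMAO (log2 fold change -0.38 with SE 0.09, adjusted p = 0.00358 by edgeR). Psap alone held 1.33% to 1.42% of all counts in controls and 0.960% to 1.09% with TMAO. Npc2, which hands cholesterol to Npc1, fell 1.47-fold, from 1992 ± 122 to 1358 ± 92.0 CPM (edgeR adjusted p = 0.000354). Grn, the precursor of the granulins, went from 2131 ± 194 to 1694 ± 71.1 CPM (edgeR adjusted p = 0.0098). Its call was lost without control replicate 1 (log2 fold change -0.30, adjusted p = 0.0545; range over the alternatives 0.00011 to 0.0545).

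All 5 sulfatases fell, by 1.27-fold to 7.13-fold, whereas 32.7% of all genes tested fell. Sgsh (ENSMUSG00000005043), which removes N-linked sulfate from heparan sulfate, was at 92.1, 78.4 and 91.4 CPM in controls and at 14.99, 10.45 and 11.24 CPM with TMAO. It fell 7.13-fold (log2 fold change -2.83 with SE 0.14, adjusted p = 1.25e-07 by edgeR). Ids (ENSMUSG00000035847), which removes sulfate from iduronate in heparan and dermatan sulfate, was at 90.0, 88.3 and 101 CPM in controls and at 21.01, 16.29 and 18.28 CPM with TMAO, 5.02-fold lower (log2 fold change -2.33 with SE 0.12, adjusted p = 1.04e-07 by edgeR). Every TMAO library lay far under every control for both. Of the others, Arsb, a sulfatase of dermatan sulfate, fell 1.90-fold, Galns, of keratan sulfate, 1.71-fold, and Arsa, of sulfatide, 1.27-fold (edgeR adjusted p = 1.05e-05, 2.54e-05 and 0.00707).

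The 5 sulfatases had a summed level of 97.8, 94.7 and 96.0 CPM per kb in controls and 42.1, 40.1 and 43.0 CPM per kb with TMAO (exact permutation p = 0.10), 0.434 times the control level. Exons of 3 sulfatases overlap genes on the other strand, whose reads cannot be told apart without a strand setting. For Arsb, 32.3% of exon bases overlap Gm26527, whose level is not analysed here, and 7.67% overlap Gm47210, at 0 CPM in controls. For Sgsh, 21.6% overlap Card14, at 1.35 CPM in controls, and for Arsa, 18.8% overlap C230037L18Rik, at 1.04 CPM. Sumf1, which activates every sulfatase by modifying its active site and is not among the 45, fell as well, from 85.8 ± 0.611 to 56.0 ± 1.45 CPM (log2 fold change -0.61, edgeR adjusted p = 7.01e-05).

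**Figure D3:**
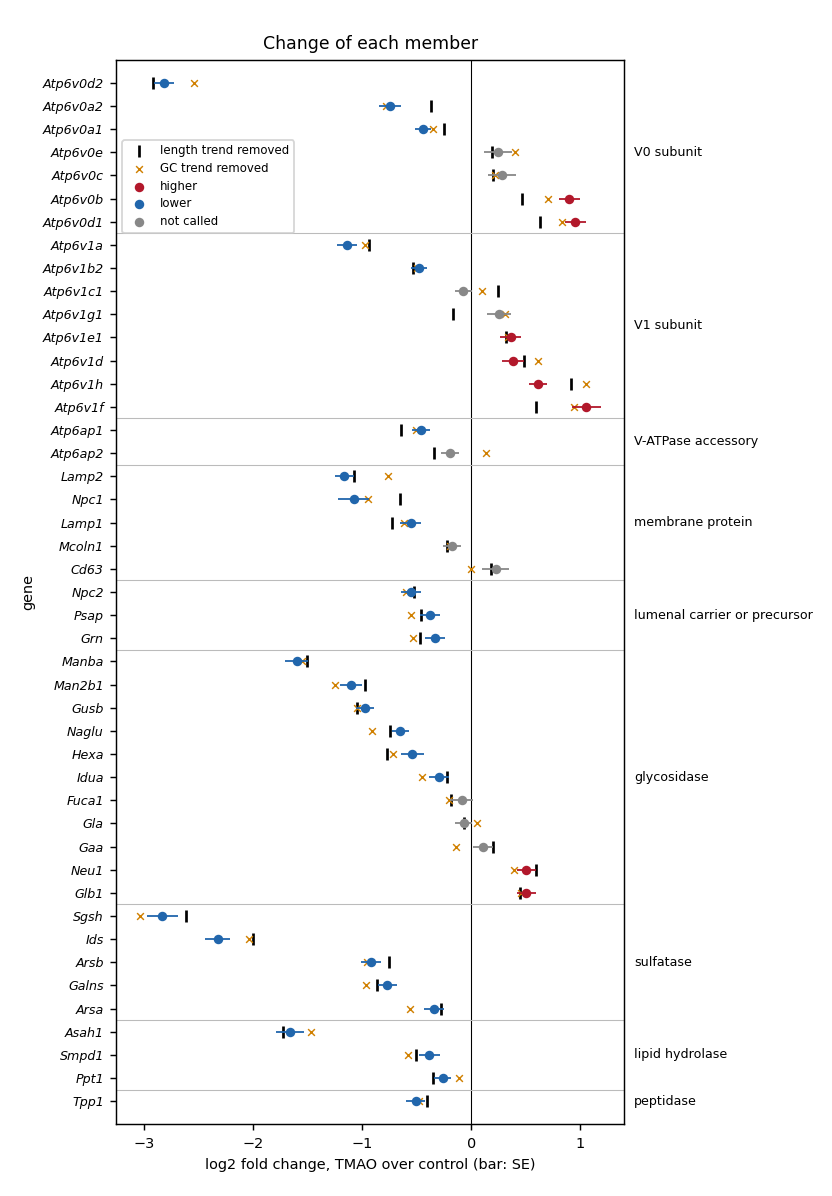
Log2 fold change of each member, TMAO over control, with its SE, by class and coloured by the edgeR call, beside the value with the length trend (bar) and the GC trend (cross) removed. All sulfatases and lipid hydrolases lie left of 0, and V-ATPase subunits lie on both sides, from -2.82 for Atp6v0d2 to 1.06 for Atp6v1f.

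Glycosidases were mostly lower: 6 of 11 fell, 2 rose and 3 did not pass. Over all genes tested, 32.7% fell and 33% rose. Manba, which cleaves the last mannose of N-glycans, was at 71.6, 69.6 and 71.8 CPM in controls and 26.1, 20.1 and 23.9 CPM with TMAO, 3.04-fold lower (log2 fold change -1.60 with SE 0.11, adjusted p = 8.08e-07 by edgeR). Man2b1, the mannosidase that acts before it, fell 2.15-fold, from 588 ± 15.9 to 273 ± 32.5 CPM (edgeR adjusted p = 5.83e-06). Gusb, the glucuronidase, was at 631, 662 and 619 CPM and at 331, 307 and 336 CPM, 1.97-fold lower (log2 fold change -0.98 with SE 0.08, adjusted p = 3.43e-06 by edgeR). The groups were well apart in all 3. Naglu, which removes N-acetylglucosamine from heparan sulfate, fell 1.57-fold, Hexa, whose product degrades GM2 ganglioside, 1.45-fold, and Idua, the iduronidase, 1.23-fold. Idua, at 44.0 ± 0.478 and 35.8 ± 2.73 CPM, lost its call without TMAO replicate 3 (log2 fold change -0.30, edgeR adjusted p = 0.0518, range over the alternatives 0.00135 to 0.0518). Of its exon bases, 2.95% overlap Dgkq on the other strand, at 14.2 CPM in controls and 4.24 CPM with TMAO. The part of these reads in the Idua values was not tested.

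Glb1 and Neu1 went the other way. Glb1, beta-galactosidase, was at 79.5, 84.5 and 78.8 CPM in controls and 108, 112 and 124 CPM with TMAO (log2 fold change 0.51 with SE 0.09, adjusted p = 0.000507 by edgeR). Neu1, the lysosomal sialidase, was at 126, 127 and 115 CPM and 159, 181 and 182 CPM (log2 fold change 0.51 with SE 0.09, adjusted p = 0.000596 by edgeR). Both rose 1.42-fold, without overlap. Gaa, the glucosidase of glycogen, Gla, the alpha-galactosidase, and Fuca1, the fucosidase, did not pass (edgeR adjusted p = 0.32, 0.456 and 0.486). Over all 11 glycosidases the summed level was 1179, 1232 and 1124 CPM per kb in controls and 783, 814 and 868 CPM per kb with TMAO (exact permutation p = 0.10), 0.697 times the control level.

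Enzymes of heparan sulfate breakdown occur in both classes. Of the members, Ids, Idua, Sgsh, Naglu and Gusb act on it, a set put together after the values were seen. All 5 fell, at a median log2 fold change of -0.98. Of all 20 member enzymes, these included, 15 fell (75%), at a median of -0.53, and of all genes tested 32.7% fell.

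All 3 lipid hydrolases fell, whereas 32.7% of all genes tested fell. Asah1, acid ceramidase, was at 584, 581 and 619.7 CPM in controls and at 225, 159 and 178 CPM with TMAO, a 3.17-fold fall with wide separation (log2 fold change -1.66 with SE 0.12, adjusted p = 1.59e-06 by edgeR). Smpd1, acid sphingomyelinase, which makes the ceramide that Asah1 cleaves, fell 1.31-fold, from 29.3 ± 1.79 to 22.4 ± 1.03 CPM (edgeR adjusted p = 0.00487). Ppt1, a thioesterase that strips palmitate from proteins, went from 106 ± 2.15 to 88.3 ± 3.39 CPM (log2 fold change -0.26, edgeR adjusted p = 0.0141). Its call was lost with the GC trend removed (log2 fold change -0.11, adjusted p = 0.209) and without TMAO replicate 3 (log2 fold change -0.25, adjusted p = 0.0601; range over the alternatives 0.000466 to 0.209), and 3.51% of its exon bases overlap Cap1, an abundant gene on the other strand. The peptidase gene Tpp1 was at 347, 351 and 346 CPM in controls and 263, 222 and 248 CPM with TMAO, 1.42-fold lower (log2 fold change -0.51 with SE 0.09, adjusted p = 0.00047 by edgeR).

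**Figure D4:**
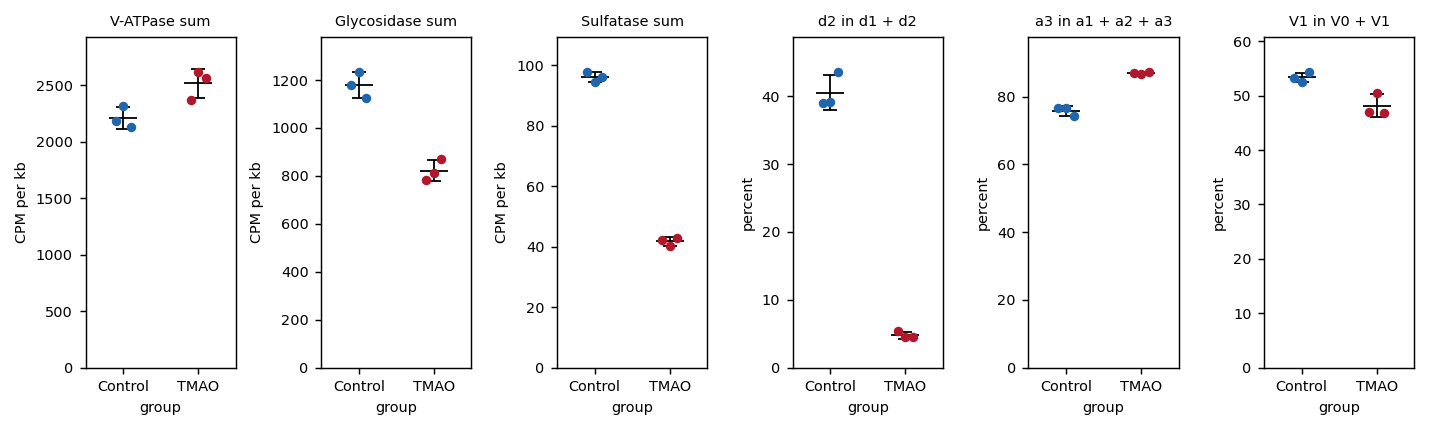
Summed transcript levels (CPM per kilobase) of V-ATPase members, glycosidases and sulfatases, and shares (percent) of d2, a3 and V1 transcripts, with 1 point per library and the mean with SD of 3. Tcirg1 is counted in the a3 share only. The sulfatase sum is at 96.2 CPM per kb in controls and 41.7 with TMAO, and the d2 share at 40.5% and 4.77%.

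Of all 45 members, 9 were called lower by at least 2-fold: Atp6v0d2, Atp6v1a, Lamp2, Npc1, Man2b1, Manba, Sgsh, Ids and Asah1. Only Atp6v1f was called higher by as much. Some of these changes were under 2-fold, though still called, with a trend removed. With the length trend removed, log2 fold changes were -0.66 for Npc1, -0.94 for Atp6v1a, -0.98 for Man2b1 and 0.59 for Atp6v1f. With the GC trend removed they were -0.76 for Lamp2, -0.95 for Npc1, -0.98 for Atp6v1a and 0.94 for Atp6v1f. Gusb, at -0.98 in the main fit, was at -1.05 in both. Among all genes tested, 14.7% fell and 15.7% rose by at least 2-fold. Per kilobase, Psap stood first in both groups, at 5092 ± 279 CPM per kb in controls and 3915 ± 208 with TMAO. Lamp1 and Grn, next in controls at 993 ± 63.4 and 911 ± 82.8 CPM per kb, lay within each other's spread there and also with TMAO (675 ± 67.6 and 724 ± 30.4). Sgsh and Ids were the lowest of the 45 with TMAO, at 2.81 ± 0.556 and 3.73 ± 0.478 CPM per kb, whereas in controls Arsb was lowest, at 9.50 ± 0.498.

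Other lysosomal genes were read from lists of the pathway. Of 28 other lysosomal enzymes, 20 fell (71.4%) and 4 rose (14.3%), with a median log2 fold change of -0.65. Of all genes tested, 32.7% fell and 33% rose. Lipa, the acid lipase of cholesteryl esters, was at 1706, 1698 and 1865 CPM in controls and at 360.3, 305 and 351 CPM with TMAO (log2 fold change -2.38 with SE 0.10, adjusted p = 3.16e-08 by edgeR). Pla2g15, a lysosomal phospholipase, fell 4.91-fold and Siae, a sialate esterase, 4.54-fold. Among those that rose were Ppt2, 1.64-fold, and Rnaset2a and Rnaset2b, near-identical copies of a ribonuclease gene at under 3 CPM whose reads may be split between them.

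Of 23 other membrane proteins tested, 15 fell and 4 rose (median log2 fold change -0.41). The cation channel gene Tpcn1 fell 4.20-fold, the nucleoside transporter gene Slc29a3 2.93-fold and the potassium and proton channel gene Tmem175 2.59-fold. Slc15a3, a transporter of histidine and peptides, went from 316 ± 21.2 to 991 ± 96.0 CPM (log2 fold change 1.65 with SE 0.10, adjusted p = 4.15e-07 by edgeR), and Tmem192 and the channel gene Tpcn2 rose 1.67-fold and 1.39-fold. Of 13 genes that deliver or activate lysosomal enzymes, 9 fell (69.2%) and 1 rose (7.69%), at a median log2 fold change of -0.61. Gnptab, which starts the mannose phosphate tag on new hydrolases, was at 174, 164 and 190.4 CPM in controls and at 65.5, 48.7 and 50.7 CPM with TMAO. Igf2r, a receptor for that tag, fell 3.19-fold and Sort1, another sorting receptor, 2.45-fold, and the adaptor gene Gga1 rose 1.41-fold. Gnptab, Igf2r and Sort1, at 5390, 8887 and 6836 bases, are in the bin of longest genes, whose median was -0.53. Gga1 has 3034 bases. The part of length in the changes of these delivery genes was not tested.

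**Figure D5:**
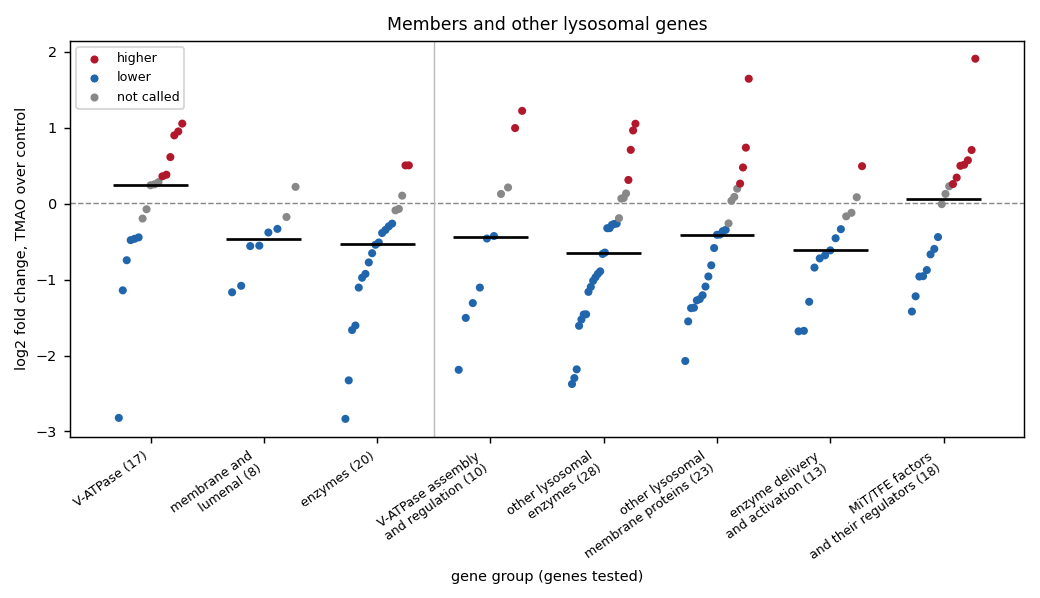
Log2 fold change, TMAO over control, of each tested gene of the members (left of the grey line) and of other lysosomal lists (right), with a bar at each group's median and a dashed line at the median of all genes tested. The medians lie at -0.53 for the member enzymes, -0.65 for other lysosomal enzymes and 0.24 for the V-ATPase.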

How the data were processed

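RNA-seq gene counts of 6 libraries were analysed. The table the authors deposited holds unnormalized whole-number counts for 25751 Ensembl genes. The submitters' processing notes name build GRCm39; for the aligner, counting tool, strand setting and annotation: not given in the sources used here. The protocol names sequencers of different makers without assigning libraries to them, so platform and treatment cannot be told apart. Columns were matched to samples by their deposited descriptions. No pair of libraries agreed within sampling noise (chi-square per degree of freedom 13.0 to 65.6). Symbols were matched by ID for 25386 genes from GENCODE M21 (GRCm38), which also gave transcript length and GC content, used for no coordinates.

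Genes were tested with edgeR 4.0.16 (R 4.3.3): filterByExpr by group (minimum count 10), TMM, quasi-likelihood F test of TMAO against control, Benjamini-Hochberg adjustment over 14626 genes, threshold 0.05. SE is the log2 fold change divided by the square root of F. CPM are TMM-scaled, and levels per kilobase use the longest transcript. Summed levels and shares were compared by exact permutation over libraries (scipy 1.17.1). All 45 members are named. In other lists the called genes with the 3 highest and 3 lowest log2 fold changes are, with Tcirg1. Chosen after their values were seen were Sumf1, Tfeb, Tfe3, Mitf and the called myeloid markers with Lyz2. The neutrophil and precursor markers Mmp8, Csf3r, Mpo and Elane and the osteoclast markers Nfatc1 and Ctsk were also chosen after their values were seen. Of the list genes, 3 V-ATPase genes were not matched and are not analysed here. The members, classes and lists were chosen with earlier results of these data known, and the promoter motif after them. The fit was tested on simulated data. Alternatives were other normalizations and filters, DESeq2 1.42.0, limma-voom (limma 3.58.1), newer moderation, trends on length or GC removed by lowess (span 0.3), the 20 most abundant genes left out, a replicate block and each library left out.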

Additional observations from a re-analysis of the deposited data

How the results depend on the processing

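Of 35 called members, 32 (24 lower, 8 higher) kept direction and call in every one of the 19 alternatives in which they were tested; Psap is among the 20 most abundant genes and was not tested without them. The exceptions, Grn, Idua and Ppt1, are given above. Members not called turned direction in places. With the GC trend removed, log2 fold changes were 0.14 for Atp6ap2, 0.10 for Atp6v1c1, -0.0073 for Cd63, -0.15 for Gaa and 0.0491 for Gla. With the length trend removed they were 0.25 for Atp6v1c1 and -0.17 for Atp6v1g1, and with the replicate block added to it 0.25 and -0.17. Fuca1 was at 0.00053 without TMAO replicate 1. Some alternatives gave a call, in the direction of the main fit, to 8 members not called there. Among them, with the length trend removed, were Atp6ap2 (log2 fold change -0.34), Mcoln1 (-0.22) and Gaa (0.20). The edgeR adjusted p was 0.000977, 0.0129 and 0.0324. Counts of members ran from 25 to 28 lower and 8 to 11 higher with 1 library left out, and the count of membrane proteins higher from 0 to 1. All genes called ran from 8629 to 9931 there.

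Class medians kept their sign under every alternative and moved beyond the spread between libraries in these cases. The accessory proteins were at -0.19 with the GC trend, -0.49 with the length trend and -0.49 with the length trend and block, the glycosidases at -0.45, -0.23 and -0.23, the lipid hydrolases at -0.58, -0.51 and -0.51, and the lumenal proteins at -0.55, -0.47 and -0.47. The peptidase was at -0.41 with the length trend and -0.41 with the block added. The glycosidase median ran from -0.36 to -0.24 with 1 library left out. The cause of these shifts was not tested.

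Replicate numbers did not pair the libraries: deviations of same-numbered libraries correlated at 0.032, 0.133 and -0.067. With the replicate number as a block, 27 members fell, 11 rose and 9723 genes were called, with Atp6v0c, Atp6v0e and Atp6v1g1 newly among them; not every library correlated best with its own number. An exact test of 3 libraries against 3 cannot go below p = 0.10, which limits the summed levels and shares.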

Other observations

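Among the MiT/TFE factors, which act on lysosomal promoters, Tfeb and Mitf fell and Tfe3 and Tfec rose. Tfeb was at 43.7, 43.3 and 40.5 CPM in controls and at 29.0, 27.1 and 28.3 CPM with TMAO, 1.51-fold lower, and Mitf fell 1.83-fold, from 115 ± 11.7 to 62.8 ± 1.63 CPM. Tfe3 rose 1.41-fold, from 151 ± 3.81 to 213 ± 16.7 CPM, and Tfec, a relative expressed in macrophages, 3.76-fold, from 20.4 ± 1.36 to 76.6 ± 6.48 CPM (edgeR adjusted p = 0.000174, 2.08e-05, 0.000498 and 1.7e-07). Of 18 genes in the list of these factors and their regulators, 7 rose (38.9%) and 8 fell (44.4%), against 33% and 32.7% of all genes tested, at a median log2 fold change of 0.06. Rraga, a GTPase that recruits mTORC1 to lysosomes, rose 1.63-fold and Lamtor2, of its anchor, 1.49-fold. Fnip2 fell 2.68-fold, Rragd 2.33-fold and the kinase gene Mtor 1.94-fold. These 3 that fell, at 7299, 5055 and 8564 bases, are in the bin of longest genes. Rraga and Lamtor2 are shorter, at 1618 and 668 bases. The part of length in these changes was not tested.

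Of 10 genes tested for V-ATPase assembly, 6 fell (60%) and 2 rose (20%), against 32.7% and 33% of all genes tested. Ccdc115, at 52.8, 55.8 and 50.9 CPM in controls and 111, 137 and 124 CPM with TMAO, rose 2.34-fold, and its partner Tmem199, with which it assembles V0, rose from 18.9 ± 1.40 to 37.8 ± 3.21 CPM (edgeR adjusted p = 2.87e-06 and 1.62e-05). Dmxl1, Dmxl2 and Wdr7, which bring V1 to V0, fell 4.56-fold, 2.84-fold and 2.48-fold. These are long transcripts. Of the other V-ATPase subunits tested, Atp6v1g2 fell 2.40-fold, from 7.82 ± 0.776 to 3.25 ± 0.400 CPM.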
